A study of Mus musculus with 4 samples.

Results

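The genes described here are 10 genes of cell-cell junctions, taken by symbol from the 32285 genes counted in each mouse, and all 10 were found. Cdh5 (VE-cadherin), Pecam1, Cldn5, Esam, Emcn and Jam2 are the vascular members, and Tjp1, Ocln, Cldn18 and Cldn3 are the tight junction members that epithelia carry. Their levels were followed over the cell classes of lungs from 2 WT mice, labelled as strain C57/BL6J, and 2 mice labelled as strain VEcad-TRF2DN-Tg, all 8 to 9 weeks old. The study exposed all of these mice to chronic hypoxia, so that no lung from normal air enters the comparison. The Tg mice, kept on a C57Bl/6J background, carry a dominant-negative form of TRF2, a protein that protects telomeres, driven by the promoter of VE-cadherin. This is the promoter of Cdh5, whose level therefore shows in which classes it is active, and the transgene itself was not analysed here. Nuclei were profiled in droplets, and transcripts were counted by their unique molecular identifiers (UMIs), so that copies made by PCR were not counted again.

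VE-cadherin is the adhesive protein of adherens junctions between ECs, where it binds its like on the neighbouring cell and holds catenins at the inner side of the membrane. Tight junctions seal the space between cells: claudins and occludin form the strands, and ZO-1, the product of Tjp1, ties them to actin. In the lung, the endothelial barrier and the epithelium of the alveoli each have a set of these proteins, and claudin-18 is known as the main claudin of the alveolar epithelium.

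Levels are given as CPM, the UMIs of the gene scaled to 1000000 UMIs of a class in a mouse, and values per mouse are listed in the order WT mouse 1, WT mouse 2, Tg mouse 1, Tg mouse 2. The matrices held 125261739 to 182014706 UMIs per mouse. Of the barcodes with at least 1500 UMIs (25269 to 44000 per mouse), 12.2%, 11.9%, 37.4% and 24.7% carried the markers of a single cell class above the level of free RNA. ECs numbered 697, 638, 1661 and 2012, and alveolar type 1 nuclei 655, 1019, 1514 and 1476. The EC markers summed to 10932, 8983, 8190 and 7939 CPM in the EC class, against 930 to 1694 in barcodes with 300 to 800 UMIs, which served as droplets without a nucleus (empty droplets) and show the free RNA. No EC marker was at 0 in the empty droplets. The alveolar type 2 class did not stand apart in this way in the Tg mice: its own markers summed to 14827, 14549, 20515 and 18537 CPM, against 6666, 8478, 21693 and 20607 in the empty droplets. Etv5, a transcription factor and a marker of this list, was above the empty droplets in all 4 mice (1538, 1158, 954 and 1212 against 325, 246, 127 and 216). The share of free RNA in the EC class was estimated as 43.1%, 43.0%, 31.3% and 32.9%. It was taken from the marker list of another class with the lowest level relative to the empty droplets, the club cell list in each mouse. It is thus the lowest of the estimates, and the later subtraction of free RNA rests on such values. Between 2 libraries, 176 to 475 barcodes were shared, and 1.39% of all distinct barcodes occurred in more than 1 library.

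In GENCODE vM21, an annotation of the mm10 genome (GRCm38), the members differ widely in build. Cdh5 lies at chr8:104101625-104144511 on the plus strand and spans 42.9 kb, of which 90.2% is intronic. Pecam1 (chr11:106654217-106750628, minus strand, 96.4 kb), Emcn (chr3:137341067-137432185, plus strand, 91.1 kb), Jam2 (chr16:84774123-84825928, plus strand, 51.8 kb) and Esam (chr9:37528078-37538319, plus strand, 10.2 kb) also have several exons. Tjp1 (chr7:65296165-65527781, minus strand) is the longest with 232 kb, while Ocln (chr13:100496507-100552718, minus strand) spans 56.2 kb and Cldn18 (chr9:99689461-99717267, minus strand) 27.8 kb. Cldn5 (chr16:18776847-18778262, plus strand) and Cldn3 (chr5:134986214-134987472, plus strand) are intronless and span 1.42 and 1.26 kb. Reads from introns were counted. Among all genes tested in ECs, those under 5 kb had a median level of 0.535 times that in the empty droplets, and those over 100 kb of 1.34 times.

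RefSeq promoters (GRCm38.p6) of 6 members were used, while those of Cdh5, Pecam1, Esam and Jam2 were not analysed here. The 250 bases before the start are shown for the vascular genes Emcn and Cldn5, of the members the most like Cdh5 in level over the classes. They are also shown for the epithelial genes Cldn18 (both of its starts) and Cldn3. Capitals mark CAGGAA, a form of ETS sites, CAAGTG, a motif of NKX2-1, and GGAATG, a motif of TEAD factors, on either strand.
Emcn, chr3:137340828-137341077, plus strand: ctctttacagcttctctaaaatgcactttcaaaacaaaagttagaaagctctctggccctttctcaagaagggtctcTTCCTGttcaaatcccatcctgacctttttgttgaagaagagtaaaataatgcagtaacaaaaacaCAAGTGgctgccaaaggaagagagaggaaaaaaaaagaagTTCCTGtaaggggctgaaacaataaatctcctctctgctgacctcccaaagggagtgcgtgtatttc
Cldn5, chr16:18776597-18776846, plus strand: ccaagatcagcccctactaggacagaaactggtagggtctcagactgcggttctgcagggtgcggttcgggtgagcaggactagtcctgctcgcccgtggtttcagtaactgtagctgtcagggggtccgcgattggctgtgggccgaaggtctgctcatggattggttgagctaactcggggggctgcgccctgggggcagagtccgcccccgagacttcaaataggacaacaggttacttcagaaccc
Cldn18, upstream start, chr9:99717268-99717517, minus strand: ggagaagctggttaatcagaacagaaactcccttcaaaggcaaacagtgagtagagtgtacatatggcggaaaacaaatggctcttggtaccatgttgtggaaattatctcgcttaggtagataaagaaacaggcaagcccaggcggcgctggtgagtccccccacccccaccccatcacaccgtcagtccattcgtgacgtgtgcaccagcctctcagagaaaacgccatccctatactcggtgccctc
Cldn18, downstream start, chr9:99710064-99710313, minus strand: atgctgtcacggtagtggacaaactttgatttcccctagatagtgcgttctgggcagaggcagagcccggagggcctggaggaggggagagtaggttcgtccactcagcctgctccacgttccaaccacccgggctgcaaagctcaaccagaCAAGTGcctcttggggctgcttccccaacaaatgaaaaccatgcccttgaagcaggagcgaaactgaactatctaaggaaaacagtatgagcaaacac
Cldn3, chr5:134985964-134986213, plus strand: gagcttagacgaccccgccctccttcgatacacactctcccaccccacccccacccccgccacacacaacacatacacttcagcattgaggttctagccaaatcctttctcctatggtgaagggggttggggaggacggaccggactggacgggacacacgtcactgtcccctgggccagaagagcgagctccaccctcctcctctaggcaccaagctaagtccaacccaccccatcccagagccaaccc
The Emcn promoter held the ETS motif at 173 and 67 bases before the start, both on the minus strand, and the NKX2-1 motif at 107 bases. The downstream start of Cldn18 held the NKX2-1 motif at 98 bases before it. The windows of Cldn5, Cldn3 and the upstream start of Cldn18 held none of these letters, nor did those of Tjp1 and Ocln. Of 32851 promoters of this length, 25.7% held CAGGAA, 11.6% CAAGTG and 12.6% GGAATG on either strand. The pair CG, which is frequent in promoters of broadly used genes, occurred 1 time in the Emcn window, 12 times in that of Cldn5, 9 times in each of Cldn3 and the upstream start of Cldn18 and 7 times at its downstream start.

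Cdh5 was above the empty droplets in all 4 mice in the endothelial classes and in none of the others. In the EC class, its level was 154, 157, 227 and 164 CPM, against 45.7, 37.4, 74.0 and 69.3 in the empty droplets. General capillary ECs, the progenitor-like cells of the alveolar capillary bed, had the highest level with 209, 257, 367 and 261. Aerocytes, the large capillary ECs of gas exchange, followed with 192, 193, 240 and 234, below general capillary ECs in each mouse, although the ranges overlap. Arterial ECs (108, 92.3, 209 and 119), venous ECs (123, 128, 157 and 110) and lymphatic ECs (80.0, 149, 126 and 111) lay lower. In every mouse, Cdh5 was higher in general capillary than in venous ECs, while the ranges of arterial, venous and lymphatic ECs overlapped.

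Outside the endothelium, Cdh5 stayed below the empty droplets in each of the 4 mice in all 11 other classes, with mean ratios to the empty droplets of 0.29 in ciliated to 0.65 in T and NK nuclei. With every barcode thinned to 1500 UMIs, about 20%, 20.5%, 29.3% and 21.6% of ECs had a Cdh5 UMI, against 2.10% to 3.98% of alveolar type 1 nuclei. At the full depth (medians of 2401 to 3493.5 UMIs in ECs and 3276 to 4325 in alveolar type 1 nuclei) the shares were 36.3% to 44.5% and 6.72% to 9.49%. Alveolar type 1 nuclei served here as the background, since this cell type should lack the gene.

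**Figure D1:**
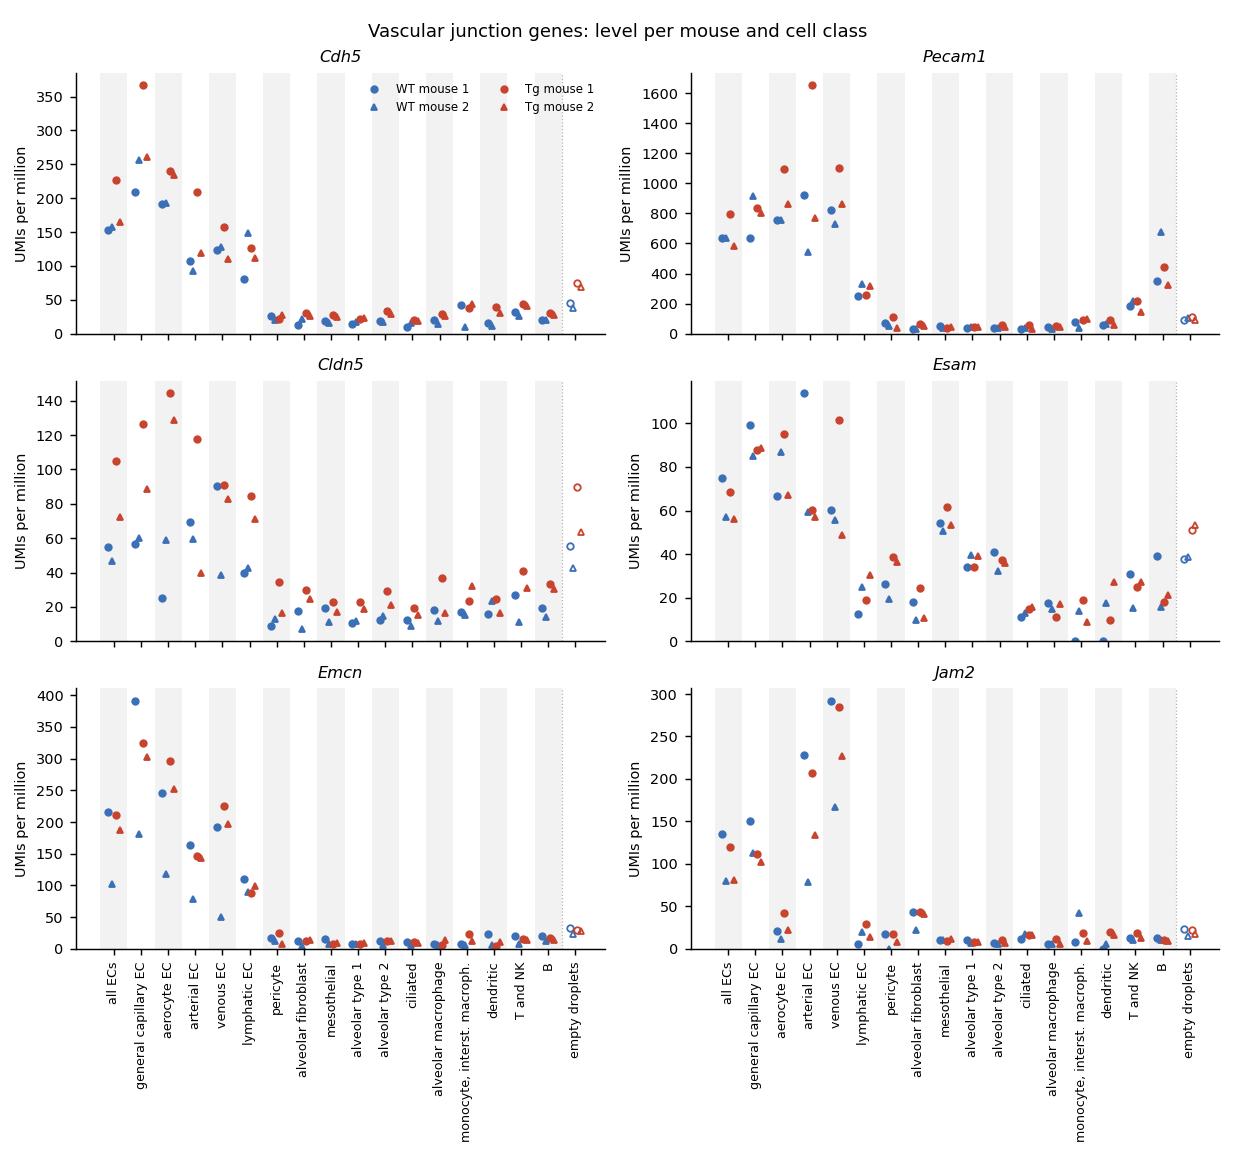
Level of each vascular junction gene in CPM (linear axis from 0) in each cell class, with 1 point per mouse and open symbols for the empty droplets. Cdh5 and Emcn stand out in the endothelial classes of all 4 mice, Pecam1 also in B and in T and NK nuclei. Jam2 stands out in venous and arterial ECs but hardly in aerocytes. Cldn5 of the Tg mice lies above that of the WT mice in 12 of 17 classes, and was tested in 14. Of all genes tested in a class, 18.1% to 35.3% lie above in this way.

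Pecam1 encodes CD31, an adhesion molecule of EC borders that leukocytes also carry. It reached 637, 636, 795 and 584 CPM in ECs, 6.63 times the empty droplets on average, and did not separate the blood EC subclasses: arterial ECs alone ranged from 541 to 1651. Lymphatic ECs had 252, 329, 257 and 319, below every blood EC value. B nuclei had 352, 677, 442 and 323, and T and NK nuclei 186, 216, 218 and 141, both above the empty droplets (91.3 to 114) in all 4 mice. In alveolar type 1 nuclei, Pecam1 was at 34.5 to 45.5.

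Jam2 encodes JAM-B, an adhesion molecule that is known from high endothelial venules and binds JAM-C. Its level differed widely between the EC subclasses. Venous ECs had 292, 166, 285 and 227 CPM, arterial ECs 228, 79.1, 207 and 134, and general capillary ECs 150, 113, 112 and 103. Aerocytes had only 20.8, 11.8, 42.3 and 22.4 (5, 3, 12 and 16 UMIs), about the level of the empty droplets (23.2, 14.7, 22.2 and 16.9). The lowest venous value was above the highest aerocyte value, and general capillary ECs exceeded aerocytes in each mouse. Lymphatic ECs had 6.15 to 28.7, and alveolar fibroblasts, with 43.4, 22.2, 43.3 and 41.6, were the remaining class above the empty droplets in all 4 mice.

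Emcn encodes endomucin, a sialomucin of capillary and venous ECs that keeps leukocytes from adhering. Its level in general capillary ECs was 391, 182, 324 and 302 CPM, in aerocytes 246, 118, 296 and 252, in venous ECs 193, 49.9, 226 and 197, and in arterial ECs 164, 79.1, 147 and 144. WT mouse 2 was the lowest in each of these subclasses, also where WT mouse 1 was the highest. In the 11 classes outside the endothelium, Emcn stayed under the empty droplets (22.7 to 33.6) in every mouse.

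Esam, an immunoglobulin adhesion molecule of endothelial tight junctions, stood little above the empty droplets. It had 74.9, 57.0, 68.3 and 56.0 CPM in ECs, 1.05 to 1.97 times the empty droplets, and 85.1 to 99.4 in general capillary ECs. Mesothelial nuclei had 54.2, 50.5, 61.7 and 53.3, which overlaps ECs, while lymphatic ECs had 12.3 to 30.4.

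Cldn5, the main claudin of endothelial tight junctions, had 54.6, 46.4, 105 and 72.5 CPM in ECs, 0.99 to 1.17 times the empty droplets (55.4, 42.5, 89.8 and 63.6). In the 11 classes outside the endothelium, the mean ratio was 0.22 to 0.42. ECs thus stood above these classes and near the level of the empty droplets. Free RNA was estimated at 43.1%, 43.0%, 31.3% and 32.9% of the UMIs of ECs, so that a ratio of 1 is not the level of free RNA alone. The level of the empty droplets moved with the gene over the mice: Tg mouse 1 was the highest and WT mouse 2 the lowest in ECs as in empty droplets.

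The genes with the pattern most like that of Cdh5 were sought over 16 classes (ECs as their 4 subclasses), by Pearson's r of the log2 level averaged over the mice, among 13387 genes. Emcn led with r = 0.99, followed by Cldn5 and Pcdh17, a protocadherin (both r = 0.98), Rasip1, a Ras-interacting protein needed for vessel lumens (r = 0.98), and Arhgef15, an endothelial guanine nucleotide exchange factor (r = 0.97). Pecam1 had r = 0.89, Jam2 0.73, Esam 0.66 and Tjp1 0.64. These values describe classes of the same 4 mice, which share free RNA, and no p is given.

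Among the tight junction members, Tjp1 was shared by endothelium and epithelium. Alveolar type 1 nuclei had 588, 498, 382 and 408 CPM, 2.49 to 3.13 times the empty droplets, and ECs had 489, 367, 350 and 326. General capillary ECs had 623, 469, 474 and 450, so that their range overlapped that of alveolar type 1 nuclei. Alveolar type 2 nuclei had 277, 258, 208 and 228, and alveolar macrophages had the lowest level with 53.8 to 92.7, below the empty droplets in each mouse.

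Ocln, the occludin gene, was highest in alveolar type 1 nuclei with 207, 184, 145 and 161 CPM, 3.72 to 5.35 times the empty droplets. Ciliated nuclei followed with 82.8, 86.3, 77.1 and 92.5, below alveolar type 1 nuclei in every mouse. Alveolar type 2 nuclei had 43.8 to 51.9, a level near that of ECs (43.6 to 58.5) and of the empty droplets (27.1 to 55.6). Aerocytes had 113, 78.9, 56.5 and 60.2, 1.65 to 2.08 times the empty droplets, more than mesothelial nuclei (14.1 to 22.1) in all 4 mice. The RNA of club nuclei, which were numerous enough in the Tg mice only (197 and 170, against 3 and 1), held 58.8 and 84.7 Ocln CPM.

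Cldn18 was above the empty droplets in all 4 mice only in alveolar type 1 nuclei, with 277, 291, 260 and 301 CPM against 158, 201, 183 and 233. Alveolar type 2 nuclei had 168, 179, 192 and 221, at the level of the empty droplets (0.89 to 1.07 times). Free RNA was estimated at 32.9%, 30.8%, 28.6% and 27.4% of their UMIs, so that such a ratio is not the level of free RNA alone. Every other class lay below the empty droplets in each mouse, with 41.1 to 92.4 in mesothelial nuclei. Thinned to 1500 UMIs, 31.8% to 36.2% of alveolar type 1 nuclei, 20.6% to 27.7% of alveolar type 2 nuclei and 11.7% to 18.9% of ECs had a Cldn18 UMI. With marker genes left out, those of alveolar type 1 nuclei included, the most similar patterns over the classes were those of Rgcc (r = 0.91), Ndnf (0.90), Scd2 (0.89), Lpin2 (0.89) and Matn4 (0.89). Ocln had r = 0.55.

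Cldn3, known from airway and alveolar type 2 epithelium, was above the empty droplets in all 4 mice in no class. Its mean ratio to the empty droplets was 0.16 to 0.76 over the 17 classes, 0.48 in alveolar type 2 and 0.73 in ciliated nuclei. Club nuclei of the Tg mice had 54.7 and 17.4 CPM (40 and 16 UMIs), 0.330 and 0.224 times the empty droplets.

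**Figure D2:**
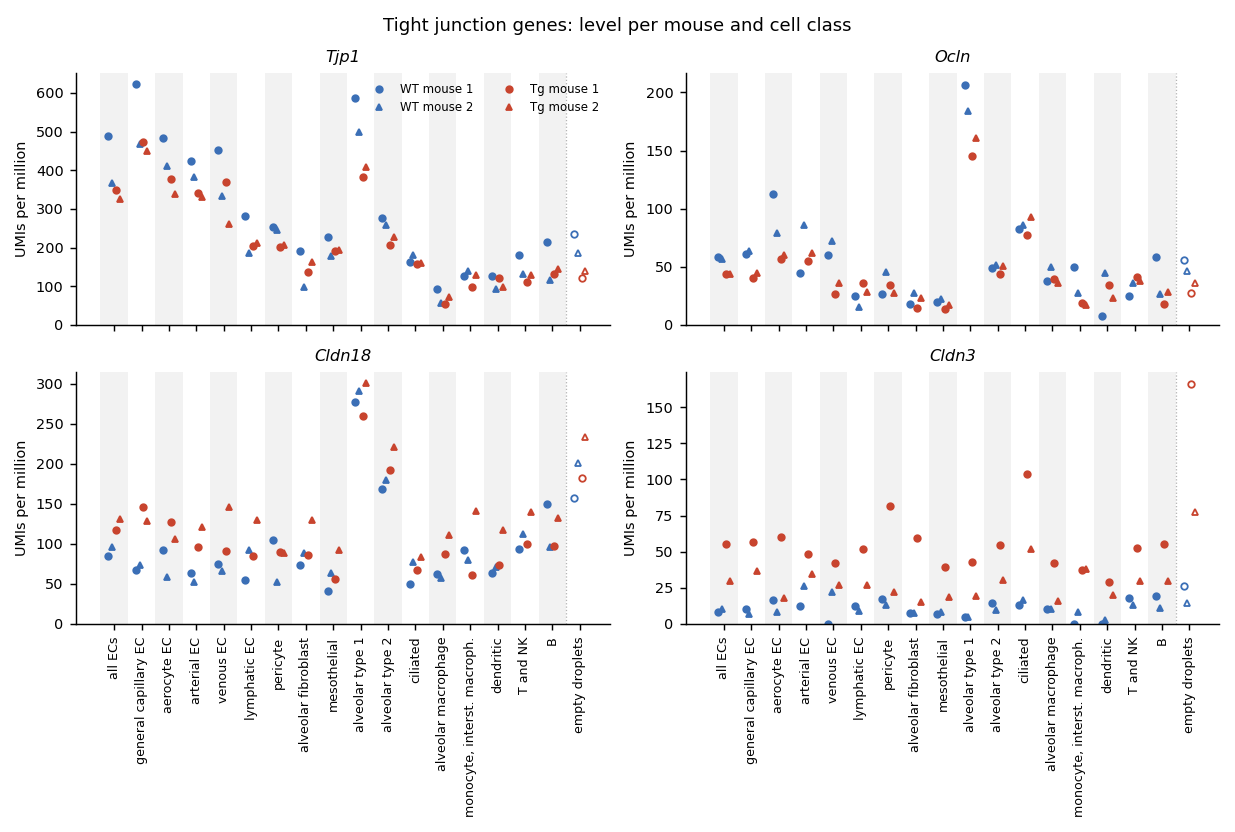
Level of each tight junction gene in CPM (linear axis from 0) in each cell class, with 1 point per mouse and open symbols for the empty droplets. Alveolar type 1 nuclei have the most Ocln and Cldn18, Tjp1 is about as high in general capillary ECs as in alveolar type 1 nuclei, and Cldn3 is higher in the Tg mice in every class and highest in the empty droplets of Tg mouse 1.

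The UMIs of each class were added up for each mouse, and genotypes were compared by the quasi-likelihood test of edgeR, with p adjusted (Benjamini-Hochberg) over all genes tested in a class. Changes are log2 differences, Tg minus WT, with their SE, over 2 mice per genotype. The p-values rest on the spread between these few mice, with the spread of each gene drawn toward a trend over all genes tested. In such sums, a change in each nucleus and a changed mixture of nuclei cannot be told apart. Over the 17 classes, 143 of 170 pairs of a member and a class passed the filter on low counts, and 8 passed the threshold of 0.05, 6 of them Cldn3, beside 6.39% of all tests of a gene in a class, while 33 had an unadjusted p under 0.05, a rule that 23.1% of all such tests met (14.8% to 29.7% by class). Of the 143, 5 (4 of them Cldn3) reached the filter's level in the Tg mice only and in no WT mouse, 1 of the 8 calls among them, so that such a pair was tested because it was high in the Tg mice. The EC subclasses are part of the EC class.

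In ECs, 1 of the 10 members passed, Cldn3, where 7.77% of all genes tested were called. The number of called genes, 1100 with all mice, was 3 without Tg mouse 1, 149 without Tg mouse 2, 1663 without WT mouse 1 and 3022 without WT mouse 2. Its level was 8.17, 10.2, 55.6 and 30.0 CPM (19, 28, 268 and 219 UMIs), with every Tg value above every WT value, a log2 change of 2.18 ± 0.38 or 4.55-fold (adjusted p = 0.0210). Without Tg mouse 1 the adjusted p was 0.161. In the empty droplets, Cldn3 had 25.9, 14.7, 166 and 77.5 CPM, more than in ECs of the same mouse, and rose by 2.91 ± 0.53 (adjusted p = 0.0183). Without Tg mouse 1, that change was 2.03 (adjusted p = 0.199). The markers of club cells, the secretory cells of the airways, moved in the same direction in the empty droplets: they summed to 20219, 17887, 142583 and 50613 CPM, and 5 of the 7 were higher and 1 lower in both Tg mice. The alveolar type 2 markers summed to 6666, 8478, 21693 and 20607 there, with 4 of 9 higher and 2 lower in both Tg mice. No marker of either list was at 0. The ratio of the summed markers, Tg over WT, was 5.07 for the club list and 2.79 for the alveolar type 2 list. It was 2.13 for mesothelial, 2.11 for smooth muscle, 1.93 for neutrophil and 1.85 for adventitial fibroblast markers. The lists of the other main classes ran from 0.524 (dendritic) to 1.30 (alveolar macrophage), and those of the EC subclasses from 0.329 (arterial) to 1.22 (aerocyte). With the profile of the empty droplets subtracted, the change of Cldn3 in ECs was 0.62 (adjusted p = 0.802). The part of club cell RNA in the change of Cldn3 was not tested further.

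Cdh5 itself was not called in ECs, with a log2 change of 0.31 ± 0.22 (adjusted p = 0.381). Tg mouse 2 lay close to the WT mice (164 against 154 and 157 CPM), and Tg mouse 1 stood apart with 227. In the empty droplets, the EC markers summed to 1694 and 1258 CPM in WT and to 930 and 1033 in Tg mice. Of the 13, 3 were higher and 8 lower in both Tg mice. Cdh5 was higher there in Tg mice, by 1.05 ± 0.25 (adjusted p = 0.0290), a larger difference than in ECs. It had 45.7 and 37.4 in WT against 74.0 and 69.3 in Tg mice. That call was lost without WT mouse 2 (adjusted p = 0.0625), Tg mouse 1 (0.225) or Tg mouse 2 (0.0628), and with scaling by total UMIs (0.0675). After subtraction of that profile, the difference in ECs was -0.03. Over the 15 classes in which Cdh5 was tested, the estimates were all positive, from 0.10 to 1.31, epithelial classes included, and none passed.

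Cldn5 in ECs was higher by 0.78 ± 0.25 (adjusted p = 0.0938), with no overlap between genotypes. Cldn5 passed in ECs without WT mouse 1 (0.94, adjusted p = 0.0106), without the filter on low counts (0.82, 0.00275) and with classes by whole profile (1.18, 0.0200), and Emcn did without WT mouse 1 (0.96, adjusted p = 0.00770). With all mice, the remaining vascular members overlapped between genotypes in ECs: Pecam1 differed by 0.09 ± 0.23 (adjusted p = 0.821), Emcn by 0.29 ± 0.37 (0.652), Esam by -0.11 ± 0.23 (0.776) and Jam2 by -0.13 ± 0.34 (0.842). Tjp1 (-0.37 ± 0.22, adjusted p = 0.305) and Ocln (-0.43 ± 0.18, adjusted p = 0.171) had every Tg value below every WT value, and Cldn18 (0.43 ± 0.17, adjusted p = 0.148) every Tg value above. Of all genes tested in ECs, 34.2% had every Tg value above and 26.8% every Tg value below. The median over the 10 members was 0.19, beside 0.02 over all genes tested.

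In general capillary ECs, 2 of 10 members passed the threshold (10.9% of all genes), Cldn3 with 10.1, 6.67, 56.9 and 36.7 CPM (2.52 ± 0.48, adjusted p = 0.00635) and Cldn18 with 66.9, 73.4, 146 and 129 (1.02 ± 0.24, adjusted p = 0.0199). Cldn18 lay below the empty droplets in these nuclei in every mouse, and its adjusted p was 0.198 without Tg mouse 1, 0.0633 without WT mouse 1, 0.125 in DESeq2 and 0.0891 at 3000 or more UMIs. At the other settings, the result for Cldn18 was the same in 9 and weaker in these 4. Cldn3 had 5 and 4 UMIs in the WT mice, both under the filter's level of 11.7 CPM, and entered the test through the Tg mice alone. It did not pass without Tg mouse 1 (adjusted p = 0.0675). Cdh5 had a change of 0.48 ± 0.24 here (adjusted p = 0.200). In aerocytes, 1 of 8 members tested passed (6.73% of all genes): Cldn5 had 25.0, 59.2, 145 and 129 CPM (6, 15, 41 and 92 UMIs), 1.79 ± 0.41 or 3.46-fold higher (adjusted p = 0.00800). Both Tg aerocyte values were more than the 89.8 and 63.6 of their empty droplets. WT mouse 1 lay under the filter's level of 37.2 CPM. The adjusted p was 0.0932 without WT mouse 1, 0.0185 without Tg mouse 1, 0.0766 in DESeq2, 0.136 at 3000 or more UMIs and 0.371 with free RNA subtracted, and the change was 2.46 without WT mouse 2. None of the 9 members tested in arterial ECs (3.59% of all genes called) and none of the 10 in venous ECs (6.38%) passed in edgeR or DESeq2, with 1 and 3 at an unadjusted p under 0.05, beside 14.8% and 19.8% of all genes. Jam2 and Emcn in venous ECs differed by 0.19 ± 0.30 and 0.73 ± 0.44.

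In alveolar type 1 nuclei, Cldn3 was again the single member called (7.59% of all genes), with 4.89, 5.09, 43.2 and 19.1 CPM and a change of 2.66 ± 0.49 (adjusted p = 0.0276). Tjp1 was lower by -0.47 ± 0.18 (adjusted p = 0.138) and Ocln by -0.36 ± 0.17 (adjusted p = 0.194), both with no overlap between genotypes (25.6% of all genes lay below in this way), while Cldn18 differed by -0.03 ± 0.15 (adjusted p = 0.916). In the empty droplets, Tjp1 had 236, 187, 122 and 139 CPM and Ocln 55.6, 46.6, 27.1 and 36.4, differences of -0.46 ± 0.25 and -0.46 ± 0.24 that did not pass either. Alveolar type 2 nuclei (8.20% of all genes called) likewise had Cldn3 as the single call, with 14.3, 9.68, 54.4 and 30.3 (1.88 ± 0.38, adjusted p = 0.0275). Cdh5 in these nuclei, at 0.40 to 0.48 times the empty droplets, had 18.1, 17.9, 33.9 and 29.4 (0.80 ± 0.24, adjusted p = 0.0708). Without Tg mouse 1, the change of Cldn3 in alveolar type 1 nuclei was 1.82, and it passed in neither class (adjusted p = 0.131 and 0.106), nor without WT mouse 2 (0.0797 and 0.0759), and in alveolar type 1 nuclei not without WT mouse 1 (0.116). With free RNA subtracted, the change of Cldn3 in alveolar type 2 nuclei was 0.41 (adjusted p = 0.659), and in alveolar type 1 nuclei Cldn3 was not tested at that setting.

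**Figure D3:**
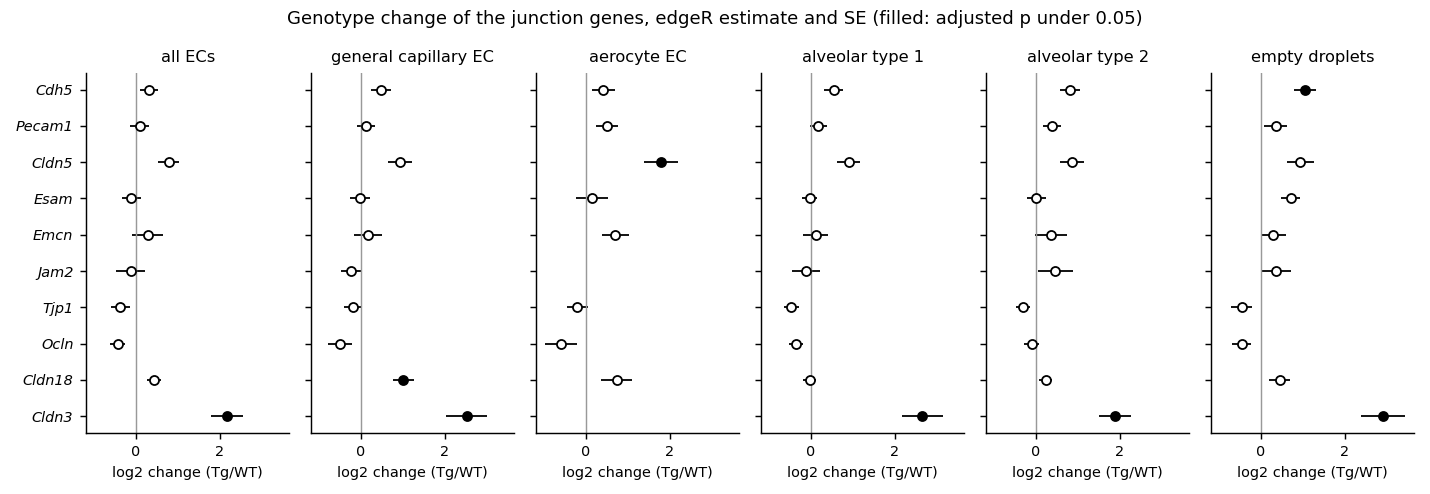
Genotype change of each member on the log2 scale (points, edgeR estimate, Tg over WT) with its SE (bars) in ECs, 2 EC subclasses, alveolar nuclei and empty droplets, filled where the adjusted p was under 0.05. Cldn3 lies far to the right in each panel in which it was tested, Tjp1 and Ocln lie left of 0 in each, and the filled points of other members are Cldn18 in general capillary ECs, Cldn5 in aerocytes and Cdh5 in empty droplets.

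In the other classes, Cldn3 passed in ciliated nuclei (2.35 ± 0.39, adjusted p = 0.0261, 4.52% of all genes called) and B nuclei (1.80 ± 0.49, adjusted p = 0.0399, 5.75% of all genes), and in neither without Tg mouse 1 (adjusted p = 0.294 and 0.791) or Tg mouse 2 (0.0620 and 0.0647). The change in ciliated nuclei was 1.73 without Tg mouse 1, and it did not pass there with free RNA subtracted (adjusted p = 0.125). In B nuclei it also did not pass without WT mouse 2 (1.13, adjusted p = 0.486). DESeq2 did not call it in B nuclei (adjusted p = 0.464). In lymphatic ECs (9 members tested, 5.56% of all genes called), pericytes (3 members, 6.07%), alveolar fibroblasts (7 members, 5.35%), mesothelial nuclei (10 members, 5.98%), alveolar macrophages (9 members, 4.26%), monocytes and interstitial macrophages (5 members, 4.38%), dendritic nuclei (3 members, 5.52%) and T and NK nuclei (10 members, 6.80%), no member passed in edgeR. At most 2 members in each of these classes had an unadjusted p under 0.05. DESeq2 called 1, Cldn3 in mesothelial nuclei, beside 6.26% of all genes there and 2.52% to 4.29% in the others of these classes. Cldn3 had every Tg value above every WT value in 17 of 17 classes, Cdh5 in 13, Cldn5 in 12, Cldn18 in 8, Pecam1 in 5, Jam2 in 4, Emcn in 3, and Esam and Ocln in 2, while Tjp1 lay below in 8, Ocln in 7 and Jam2 in 2. Of all genes tested in a class, 18.1% to 35.3% lay above and 22.4% to 32.2% below in this way. The counts of the members also hold classes in which a member fell under the filter. Cldn3 was tested in 12 of the 17 classes, Cdh5 in 15, Cldn5 in 14 and Jam2 in 11. These classes share mice and free RNA and are not independent. In the empty droplets, 2 of 10 members passed, Cdh5 and Cldn3, beside 26.2% of all genes.

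The difference of the genotype change between classes was tested as an interaction with a term for each mouse. For ECs against alveolar type 1 nuclei (0.0843% of all genes called), none of the 10 members passed, and 1 had an unadjusted p under 0.05 (7.66% of all genes), Cldn18 (difference 0.37 ± 0.13, adjusted p = 0.434). For ECs against alveolar type 2 nuclei (0.00654% of all genes), none passed and 3 had such a p (7.33% of all genes), with Cdh5 the lowest (difference -0.60 ± 0.18, adjusted p = 0.344). For general capillary ECs against aerocytes (0% of 9093 genes, 458 or 5.04% at an unadjusted p under 0.05), none passed and none had such a p, and the difference of Cldn5 was -0.84 ± 0.41 (adjusted p = 0.956). DESeq2 called no member in any of these pairs, and 2, 0 and 0 genes in all.

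Over all genes, the median genotype change fell with the span of the gene. In the empty droplets, the median log2 change was 1.18 for 1773 genes under 5 kb, 0.52 for 5 to 20 kb, -0.20 for 20 to 100 kb and -0.95 for 2228 genes over 100 kb. The order was the same in ECs (0.87, 0.35, -0.10 and -0.38) and in alveolar type 1 nuclei (0.90, 0.33, -0.10 and -0.34). In ECs, Cldn5, intronless, had 0.78 and Tjp1, the longest member, -0.37, each close to the median of its span. Cldn5 (0.94) lay below the median of its span of 1.18 in the empty droplets, and Tjp1 (-0.46) above that of its own of -0.95. Of the other members of 20 to 100 kb in ECs, Jam2 (-0.13) lay close to the median of this span, Ocln (-0.43) below it, and Pecam1 (0.09), Emcn (0.29) and Cldn18 (0.43) above it. Ocln (-0.46) also lay below the median of -0.20 in the empty droplets, with Emcn (0.29), Pecam1 (0.35), Jam2 (0.36) and Cldn18 (0.44) above it. Esam, of 5 to 20 kb, had -0.11 in ECs and 0.71 in the empty droplets. Cldn3 exceeded the median of its span in ECs (2.18) and in the empty droplets (2.91). Cdh5, at 42.9 kb, lay above the median of its span in ECs (0.31) and more so in the empty droplets (1.05). The part of gene span in the members' changes was not tested.

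**Figure D4:**
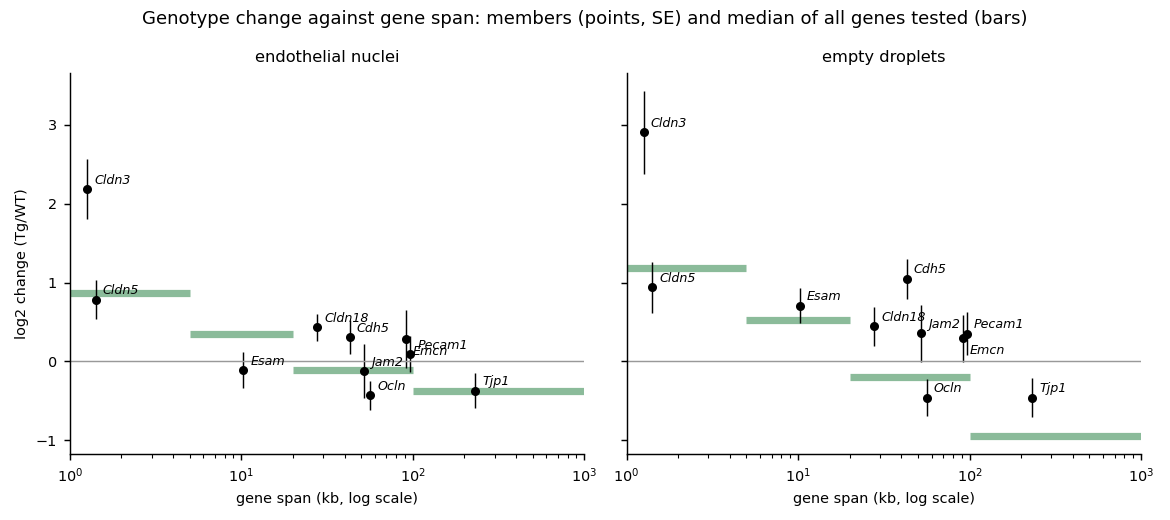
Genotype change (log2, Tg over WT) against gene span (kb, log axis) for the 10 members (points with SE) in EC nuclei and in empty droplets, with the median of all genes tested in each of 4 span ranges as bars. The bars fall from short to long genes in both panels, and Cldn3 stands above them in both.

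Of 71 further junction genes, 62 were tested in ECs and 2 rose while none fell, beside the 7.77% called of all genes. Cd151, a tetraspanin of integrin complexes that spans 4.08 kb, rose by 1.84 ± 0.25 in ECs (8.60, 11.7, 38.4 and 36.2 CPM, adjusted p = 0.0105), by 1.44 ± 0.28 in alveolar type 1 and by 2.06 ± 0.34 in alveolar type 2 nuclei, and also in the empty droplets (16.2, 27.7, 77.5 and 78.5). Clmp, an adhesion molecule related to CAR that spans 99.4 kb, rose in ECs by 1.19 ± 0.29 (10.8, 8.41, 23.5 and 21.1, adjusted p = 0.0446, and 0.105 in DESeq2) and in alveolar type 1 nuclei by 2.60 ± 0.35 (2.14, 3.73, 19.7 and 17.8, adjusted p = 0.0122). Its Tg values in alveolar type 1 nuclei exceeded those of the empty droplets (13.4 and 15.4), while the WT values were below theirs (10.6 and 6.86), where the difference between genotypes did not pass (0.97 ± 0.34, adjusted p = 0.0731). In alveolar type 2 nuclei, Clmp had 4.99, 4.73, 25.8 and 14.0 (2.04 ± 0.42, adjusted p = 0.0264). Without Tg mouse 1, the adjusted p of Clmp was 0.108 in alveolar type 1 nuclei, 0.163 in alveolar type 2 nuclei and 0.355 in ECs, and that of Cd151 was 0.127 in ECs, 0.207 in alveolar type 1 and 0.0438 in alveolar type 2 nuclei. Without Tg mouse 2, Cd151 did not pass in ECs (0.0676) or alveolar type 1 nuclei (0.0949), nor Clmp in ECs (0.156). Without WT mouse 2, the change of Cd151 in alveolar type 2 nuclei was 3.01. Cd151 in alveolar type 1 nuclei was also lost without WT mouse 1 (0.0501), and Clmp in ECs (0.0585) and alveolar type 2 nuclei (0.0628) without WT mouse 2. With free RNA subtracted, neither gene passed in ECs or alveolar type 1 nuclei (adjusted p from 0.0805 to 0.254), nor in alveolar type 2 nuclei (0.0560 and 0.0713). With classes by whole profile, Clmp did not pass in ECs (0.374) or alveolar type 2 nuclei (0.0734), and with mixed barcodes kept not in ECs (0.0552). Of the 62 tested in alveolar type 1 nuclei and the 63 in alveolar type 2 nuclei, these 2 genes were the only ones called by edgeR, beside 7.59% and 8.20% of all genes.

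By list, none of the 14 adherens junction and catenin genes passed in edgeR in ECs (median -0.38) or in alveolar type 1 nuclei (median -0.46), with 5 and 8 at an unadjusted p under 0.05 (28.1% and 29.6% of all genes) and 0 and 2 called by DESeq2 (7.82% and 8.72% of all genes). None of the 6 further claudins tested in ECs (median 0.49) and none of the 23 genes of the occludin family and scaffolds (median -0.04) passed in edgeR or DESeq2, with 3 and 9 at an unadjusted p under 0.05. In alveolar type 1 nuclei, none of the 23 scaffold genes (median -0.19) passed in edgeR, with 8 at an unadjusted p under 0.05, while DESeq2 called 4, all lower in the Tg mice, as were 1.93% of all genes by that tool, and the 2 adherens genes it called, Ctnna1 and Ctnnd1, were lower as well. In general capillary ECs, 4 of the 55 tested passed in edgeR, beside 10.9% of all genes. The scaffold genes Magi2 (-1.05 ± 0.31, adjusted p = 0.0475) and Pard3 (-0.68 ± 0.19, adjusted p = 0.0369) were lower, and Lsr, a gene of junctions where 3 cells meet, was higher (1.68 ± 0.41, adjusted p = 0.0228). Without Tg mouse 1 none of these 3 passed (adjusted p = 0.279, 0.272 and 0.150), and Magi2 and Pard3 did not without Tg mouse 2 (0.129 and 0.179), nor Magi2 and Lsr without WT mouse 1 (0.310 and 0.0899), nor Lsr without WT mouse 2 (0.0514). Cd151, the fourth, had 4.06, 10.0, 32.5 and 44.3 CPM (2, 6, 36 and 64 UMIs), with both WT mice under the filter's level of 11.7, so that it was tested through the Tg mice alone. DESeq2 called Cd151 alone of these 4 (5.05% of all genes). Magi2 differed by -0.14 (adjusted p = 0.919) with free RNA subtracted and by -0.23 (adjusted p = 0.802) at 3000 or more UMIs, and did not pass with mixed barcodes kept (0.174). Pard3 did not pass with free RNA subtracted (adjusted p = 0.131) or at 3000 or more UMIs (0.140), nor did Lsr at 3000 or more UMIs (0.0634). With free RNA subtracted, Lsr and Cd151 fell under the filter and were not tested. Magi2 (-1.47), Pard3 (-1.55) and Lsr (0.93) were called in the same direction in the empty droplets, Lsr not with scaling by total UMIs (adjusted p = 0.121). Of the further genes, 1 of 32 tested passed in aerocytes (6.73% of all genes), none of 36 in arterial ECs (3.59%) and 1 of 43 in venous ECs (6.38%). Icam2, an adhesion molecule of ECs and leukocytes, had 8.34, 23.7, 124 and 54.6 CPM in aerocytes (2.46 ± 0.63, adjusted p = 0.0238), and did not pass without Tg mouse 1 (1.79, 0.425), in DESeq2 (0.0591) or with free RNA subtracted (0.364), and its change was 3.30 without WT mouse 2 and 3.09 without Tg mouse 2. Cd151 in venous ECs had 0, 1, 25 and 15 UMIs (adjusted p = 0.0224), and did not pass without WT mouse 1 (0.169) or Tg mouse 2 (0.0685) and fell under the filter without Tg mouse 1. Both genes reached the filter's level in these classes in the Tg mice only. Both were also called higher in the empty droplets, Icam2 by 2.35 ± 0.53 (adjusted p = 0.0266) and Cd151 by 2.08 ± 0.31 (adjusted p = 0.0158). In the empty droplets, 7 of 69 were higher and 9 lower, 16 in all beside 26.2% of all genes, and none of these 16 passed without Tg mouse 1 (adjusted p from 0.199 to 0.322) or without Tg mouse 2 (0.0512 to 0.152), while 10 passed without WT mouse 1 and 15 without WT mouse 2. The list of the occludin family and scaffolds went both ways there, with 3 of its 24 genes higher (Pard6a, Crb3 and Lsr) and 7 lower. Pard6a reached the filter's level in the Tg mice only. Among the lower was Magi1 with 891, 660, 162 and 254 CPM. Of all genes over 100 kb, 44.9% were called lower there.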

How the data were processed

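Single-nucleus RNA-Seq libraries of 4 mouse lungs (2 WT, 2 Tg) were analysed. For each mouse, the authors deposited UMI counts of 32285 genes over all barcodes, made with Cell Ranger 6.1.1 on mm10 per the submitters' processing notes. Reads from introns were included, as the methods of the study state. These counts precede the study's removal of low-quality nuclei, multiplets and ambient RNA. A barcode with at least 1500 UMIs was given a class only where markers of that class exceeded the profile of its mouse's barcodes with 300 to 800 UMIs (log-likelihood ratio of at least 10), and barcodes with markers of several classes were left out (348 to 1374 per mouse). No doublet caller was run. ECs were split into 4 subclasses by markers and 671 genes, and ECs with no clear subclass stayed in the EC class alone. The members and further junction genes were in no marker list, nor among the genes that split ECs. Between 814 and 3243 barcodes per mouse scored from 8 to 12, near the threshold. Simulated droplets of free RNA gave no class.

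Classes with at least 20 barcodes in each of the 4 mice were tested on their summed UMIs. Smooth muscle, adventitial, club and neutrophil classes fell short and were not tested. Genes passed filterByExpr (minimum count 10), TMM gave the scaling factors, and genotype was tested in edgeR 4.0.16 (R 4.3.3) at an adjusted p of 0.05, after a test on simulated counts. An exact permutation test over 2 mice against 2 cannot reach that threshold. Named were the 10 members and further junction genes past the threshold with no overlap between genotypes in EC and alveolar nuclei. Also named were the 5 genes most like Cdh5 and Cldn18 over classes, with marker genes left out. Ctnna1, Ctnnd1, Magi1, Magi2, Pard3, Pard6a, Crb3, Icam2 and Lsr, and the call of Cldn3 by DESeq2 in mesothelial nuclei, were named after their values were seen. The members and gene lists were chosen with earlier results of these data known. Alternatives were DESeq2 1.42.0, other scaling, no filter, a replicate block, each mouse left out, the empty-droplet profile subtracted, 1000 or 3000 UMIs per barcode, mixed barcodes kept, classes by whole profile, shares at the full depth, and barcodes with 100 to 300 UMIs as empty droplets. Same-numbered mice were not the same animals, and the labels do not state that the numbers pair them. Whether mice of the same number share a batch was not tested. Levels in CPM of a single mouse carry counting error that the UMI totals set.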

Additional observations from a re-analysis of the deposited data

How the results depend on the processing

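The members called in ECs (1 in the reported fit) numbered 2 without the filter on low counts, 2 with the replicate block, 2 with classes by whole profile, 0 with free RNA subtracted, and 0 to 3 with a mouse left out. In the EC subclasses (3) they numbered 1 in DESeq2, 1 with free RNA subtracted, 1 at 3000 or more UMIs, 5 by whole profile, and 1 to 5 with a mouse left out. In alveolar epithelium (2) they numbered 5 without the filter, 0 with free RNA subtracted, and 0 to 2 with a mouse left out. In the other classes (2) they numbered 7 without the filter, 5 with the replicate block, 0 with free RNA subtracted, 8 by whole profile, and 0 to 8 with a mouse left out. In the empty droplets (2) there was 1 with scaling by total UMIs, and 0 to 3 with a mouse left out. Of the tests between classes (0), 1 passed with free RNA subtracted, Pecam1 in ECs against alveolar type 2 nuclei. For the EC subclasses, the other classes and these tests, the share of all genes called at these settings is not given here. The counts of members there therefore cannot be set against such a share. Of all genes, 1100 in ECs became 2752 without the filter, 2425 with the replicate block, 140 with free RNA subtracted, and 3 to 3022 with a mouse left out, lowest without Tg mouse 1. The 1105 in alveolar type 1 nuclei became 1661 with scaling by total UMIs, 3162, 222 (no filter, subtracted) and 21 to 1642, and the 1200 in alveolar type 2 nuclei 2870, 1899 (no filter, replicate block), 273 (subtracted) and 287 to 1631. The 3981 in the empty droplets became 0 to 4792 with a mouse left out, lowest without Tg mouse 1 as in each class here. The cause was not tested.

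Signs that turned, none of them called in the reported fit, were in ECs Cdh5 (-0.030) and Pecam1 (-0.21) with free RNA subtracted, Pecam1 at 3000 or more UMIs (-0.039), and Esam (0.21) and Jam2 (0.21) by whole profile. In alveolar type 1 nuclei they were Esam (0.022) and Cldn18 (0.019) by whole profile and Jam2 with mixed barcodes kept (0.30). With a mouse left out, the ranges in ECs were -0.17 to 0.33 for Pecam1, -0.35 to 0.13 for Esam, -0.19 to 0.96 for Emcn and -0.51 to 0.35 for Jam2, and in alveolar type 1 nuclei -0.11 to 0.029 for Esam, -0.040 to 0.21 for Emcn and -0.46 to 0.19 for Jam2. At the full depth, 40.4% of ECs had a Cdh5 UMI and 62.9% of alveolar type 1 nuclei a Cldn18 UMI. With the replicate block, Cldn5 in ECs passed (0.76, adjusted p = 0.0113), while Pard3 in general capillary ECs (adjusted p = 0.0585) and Cldn3 in B nuclei (0.103) did not. Same-numbered mice correlated at 0.0733 to 0.150 in their deviations, over only 2 pairs. Barcodes with 100 to 300 UMIs were too few to serve as empty droplets (95 to 113 per mouse).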
